A study of Homo sapiens with 12 samples.

Results

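The aldo-keto reductases are enzymes that use NADPH to reduce aldehydes and ketones to alcohols. The 9 human genes described here were AKR1A1, AKR1B1, AKR1B10, AKR1B15, AKR1C1, AKR1C2, AKR1C3, AKR7A2 and AKR7A3, each taken with every array probe that carries its symbol. Of these 9 genes, 7 had a probe, 13 probes in all among 30113 probes with 1 gene symbol; AKR1A1 and AKR1B1 were not analysed here. A probe was kept when its signal was above the negative controls of its array (detection p under 0.05) on at least 3 of 12 arrays, and 5 of the 13 probes passed, 1 each for AKR1B10, AKR1B15, AKR1C3, AKR7A2 and AKR7A3. These 5 genes were among 11785 genes tested. The genes were chosen on their own log2 values and detection in these 4 groups, so their differences between groups are given as a description, with no p-value.

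HCT116, an established human colon carcinoma cell line, was grown in 4 groups of 3 cultures, described by the submitters as biological replicates. WT cells were untreated and WT+ATMi cells received an ATM inhibitor at 10 uM for 3 days, renewed every day. Wip1SH cells carried an shRNA against Wip1 and were untreated, and Wip1SH+ATMi cells carried the shRNA and received the inhibitor in the same way. Wip1 is the phosphatase encoded by PPM1D, which removes phosphates placed by the DNA damage kinase ATM. No control hairpin, vehicle or number of shRNA clones is named in the labels. The hairpin's own effect, or traits of the clones used, therefore cannot be told apart from loss of Wip1. Likewise, an effect of the vehicle or of the daily renewal cannot be told apart from that of the inhibitor. RNA levels were read as log2 intensity on 1-colour Illumina bead arrays, and n is 3 arrays per group throughout. In a bulk RNA sample, fewer cells that express a gene and less RNA per cell cannot be told apart.

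Family members detoxify reactive carbonyls from lipid peroxidation and activate or inactivate steroids, prostaglandins and retinoids. Several of them, AKR1B10 and AKR1C genes above all, are known in human cells as targets of NRF2, the transcription factor that is released from KEAP1 under oxidative or electrophilic stress and binds the antioxidant response element. In colon epithelium AKR1B10 is known for reducing retinal and dietary aldehydes, and its loss is a known feature of colorectal tumours.

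The genes other than AKR1A1 sit in 3 runs of neighbours. AKR1A1 lies apart on chromosome 1, between PRDX1 and NASP. In the RefSeq order of protein-coding genes, AKR1B10 lies between AKR1B1 and AKR1B15 on chromosome 7, AKR1C1, AKR1C2 and AKR1C3 follow each other on chromosome 10, and AKR7A3 and AKR7A2 are adjacent on chromosome 1. The promoters of the AKR1C and AKR7A members are shown because AKR1C3 gave a signal while its close paralogs AKR1C1 and AKR1C2 gave almost none, and because the AKR7A genes shared a pattern. Each run covers 250 bases before to 50 bases after the RefSeq start of a gene in GRCh38.p14, written 5′ to 3′ on the gene's strand. Capitals mark the core letters of the antioxidant response element, TGANNNNGC, searched on both strands. The regions are chr10:4963165-4963464 on the plus strand for AKR1C1, chr10:5003808-5004107 on the minus strand for AKR1C2, chr10:5048531-5048830 on the plus strand for AKR1C3, chr1:19312097-19312396 on the minus strand for AKR7A2 and chr1:19288721-19289020 on the minus strand for AKR7A3.
AKR1C1: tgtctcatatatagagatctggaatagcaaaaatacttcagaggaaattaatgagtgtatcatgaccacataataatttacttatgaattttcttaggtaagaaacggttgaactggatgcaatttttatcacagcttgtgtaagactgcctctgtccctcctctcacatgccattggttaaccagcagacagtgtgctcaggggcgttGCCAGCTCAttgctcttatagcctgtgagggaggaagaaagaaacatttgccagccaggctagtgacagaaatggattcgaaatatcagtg
AKR1C2: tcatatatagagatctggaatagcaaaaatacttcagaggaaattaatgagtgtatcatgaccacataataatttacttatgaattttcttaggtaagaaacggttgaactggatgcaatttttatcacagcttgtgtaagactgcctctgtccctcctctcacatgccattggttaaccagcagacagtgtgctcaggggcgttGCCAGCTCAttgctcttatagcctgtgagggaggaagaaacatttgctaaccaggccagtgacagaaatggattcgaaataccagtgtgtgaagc
AKR1C3: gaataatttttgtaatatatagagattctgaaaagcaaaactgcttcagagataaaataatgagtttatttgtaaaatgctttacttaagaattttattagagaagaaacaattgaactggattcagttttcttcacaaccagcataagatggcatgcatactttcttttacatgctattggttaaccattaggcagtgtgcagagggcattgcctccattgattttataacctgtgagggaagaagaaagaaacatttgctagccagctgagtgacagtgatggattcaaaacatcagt
AKR7A2: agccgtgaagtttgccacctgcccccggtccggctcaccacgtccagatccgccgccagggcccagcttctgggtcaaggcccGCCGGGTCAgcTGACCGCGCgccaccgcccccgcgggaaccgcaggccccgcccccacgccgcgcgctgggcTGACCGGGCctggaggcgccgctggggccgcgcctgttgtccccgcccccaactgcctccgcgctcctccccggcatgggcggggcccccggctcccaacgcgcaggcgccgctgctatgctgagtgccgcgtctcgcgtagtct
AKR7A3: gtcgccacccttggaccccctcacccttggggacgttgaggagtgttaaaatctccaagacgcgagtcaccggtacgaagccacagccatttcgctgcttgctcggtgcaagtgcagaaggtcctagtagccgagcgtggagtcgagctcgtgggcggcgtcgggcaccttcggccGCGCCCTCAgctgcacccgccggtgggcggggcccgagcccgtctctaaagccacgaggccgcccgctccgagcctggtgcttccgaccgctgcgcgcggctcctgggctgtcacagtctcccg

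The AKR1C1 and AKR1C2 windows were identical at 288 of 300 bases (96%), and AKR1C1 and AKR1C3 at 75.7%. Both AKR1C1 and AKR1C2 held the same match on the opposite strand, GCCAGCTCA, whose first base lay at -41 and -45 from the start. The AKR1C3 window held none. A second AKR1C3 start in the RefSeq table, with the window chr10:5094164-5094463 on the plus strand, is not shown; it was 71% identical to the one printed and held none either. AKR7A2 held 3 matches and AKR7A3 held 1, and these 2 windows shared 56.3% of bases in an alignment of the whole 300. Between the AKR7A2 window and windows of members from other subfamilies, the share ran from 40.3% (the printed AKR1C3 window) to 54.3% (a window of AKR1B1). Of 35116 promoters of the same length, 41.8% held TGANNNNGC, so a match is common. The stricter letters TGACNNNGC were present in AKR7A2 (all 3 matches) and in 13.3% of all promoters. The AP-1 letters TGANTCA, which can lie within or beside the longer motif, were in none of these windows and in 7.71% of all promoters. These are matches of letters, and no binding was measured. RefSeq promoters matched 7 of the 9 genes; AKR1B10 and AKR1B15 were not matched.

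PPM1D, the target of the shRNA, fell in Wip1SH cells, from a log2 intensity of 10.34 ± 0.08 (SD, n = 3) in WT to 8.68 ± 0.22, a 3.17-fold decrease (limma, adjusted p = 2.57e-06). It was 8.79 ± 0.09 in Wip1SH+ATMi and 10.64 ± 0.04 in WT+ATMi. The arrays differed in brightness along with the groups: mean raw signal was 523.8 ± 10.53 (SD) in WT and 612.7 ± 61.71 in Wip1SH, and 689.2 ± 31.46 and 693.9 ± 48.91 in the treated WT and Wip1SH cells. The number of probes detected ran from 17650 to 17929, 18568 to 18961, 18723 to 19654 and 19505 to 20408 in the same order. The part of this in the results was not tested. Of 8 epithelial and colon markers, 6 were tested, and CDX1 and VIL1 were not detected on any array. Group means ran from 13.63 to 13.95 for EPCAM, 9.17 to 9.62 for CDX2 and 9.92 to 10.25 for CDH1. The keratins were lower in treated cells: KRT8 was 14.12 and 13.55 in untreated and treated WT and 13.71 and 13.15 in untreated and treated Wip1SH, KRT18 was 9.85, 8.79, 9.73 and 8.90 in the same order, and KRT19 was 14.79, 14.55, 14.75 and 14.08. KRT8 fell with the inhibitor in both lines (limma, adjusted p = 0.00184 in WT and 0.00222 in Wip1SH cells), and the part of the keratins in the results was not tested. Of 10 blood, stromal and endothelial markers, PTPRC, CD3E, COL3A1, PECAM1 and VWF were not detected on any array, COL1A2 was detected on 1, and COL1A1, CD14 and DCN were kept.

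AKR1B10 had its highest levels in Wip1SH cells and its lowest in both groups given the ATM inhibitor. The enzyme reduces retinal and aliphatic aldehydes. Its log2 intensity was 8.99, 8.97 and 8.91 in WT, and 9.81, 9.66 and 9.82 in Wip1SH. With the inhibitor it was 8.26, 8.39 and 8.42 in WT cells and 8.24, 8.27 and 8.26 in Wip1SH cells. Every Wip1SH array was above every WT array, every WT array was above every treated array, and the ranges of both treated groups overlapped. The order of the group means was therefore Wip1SH (9.76 ± 0.09, SD), WT (8.96 ± 0.04), WT+ATMi (8.36 ± 0.08) and Wip1SH+ATMi (8.26 ± 0.02), with the last 2 not separated by their spread.

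AKR1B10 was 1.75-fold higher in Wip1SH than in WT (log2 difference 0.81 ± 0.07, SE). The inhibitor went with a 1.52-fold lower level in WT cells (-0.60 ± 0.07) and a 2.84-fold lower level in Wip1SH cells (-1.51 ± 0.07). Between both treated groups the difference was -0.10 ± 0.07. The difference with the inhibitor in Wip1SH cells minus that in WT cells, called the interaction here, was -0.91 ± 0.10. Compared with untreated WT, Wip1SH+ATMi was lower by 0.70 on the log2 scale (-0.70 ± 0.07).

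The lower AKR1B10 level in treated WT cells depended on how arrays of unequal brightness were scaled. Before normalization the AKR1B10 signals overlapped, at 434.2 to 475.7 in WT and 413.4 to 479.8 in WT+ATMi. With equal array medians over all probes the log2 difference was -0.11 in place of -0.60, while the median of all genes stood at 0.43 under that scaling, which puts AKR1B10 at -0.54 relative to it. The Wip1SH arrays stood apart already in the raw signals, at 763.2 to 1053.6, and those of Wip1SH+ATMi were at 383.4 to 471.2. Over the alternatives tried, the difference between Wip1SH and WT ranged from 0.72 to 1.11 and that between Wip1SH+ATMi and Wip1SH from -1.56 to -1.30.

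AKR1B15, the close paralog next to AKR1B10, showed the same order of groups at a dimmer probe. Its log2 intensity was 6.74, 6.57 and 6.67 in WT, and 7.49, 7.48 and 7.62 in Wip1SH. With the inhibitor the WT cultures gave 6.48, 6.06 and 6.28 and the Wip1SH cultures 5.84, 6.24 and 5.86. The untreated groups overlapped neither each other nor a treated group, and the treated groups overlapped. Detection was reached on all 12 arrays (highest detection p 0.01429), with raw signals of 143.2 to 283.0.

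AKR1B15 was 1.83-fold higher in Wip1SH than in WT (0.87 ± 0.13, SE) and 2.92-fold lower in Wip1SH+ATMi than in Wip1SH (-1.55 ± 0.13). In WT cells the difference with the inhibitor was -0.39 ± 0.13, a 1.31-fold lower level, and -0.02 with equal medians over all probes, or -0.45 relative to the median of all genes there. The raw signals overlapped here too, at 152.4 to 163.2 in WT and 145.9 to 185.1 in WT+ATMi. Without background correction the difference between Wip1SH and WT was 0.55 and that between Wip1SH+ATMi and Wip1SH -0.89. The interaction was -1.16 ± 0.18. The sequences of the array's probes were not used here, so hybridization of AKR1B10 RNA to the AKR1B15 probe, or the reverse, was not tested, and both rows may report partly on the same RNA.

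**Figure D1:**
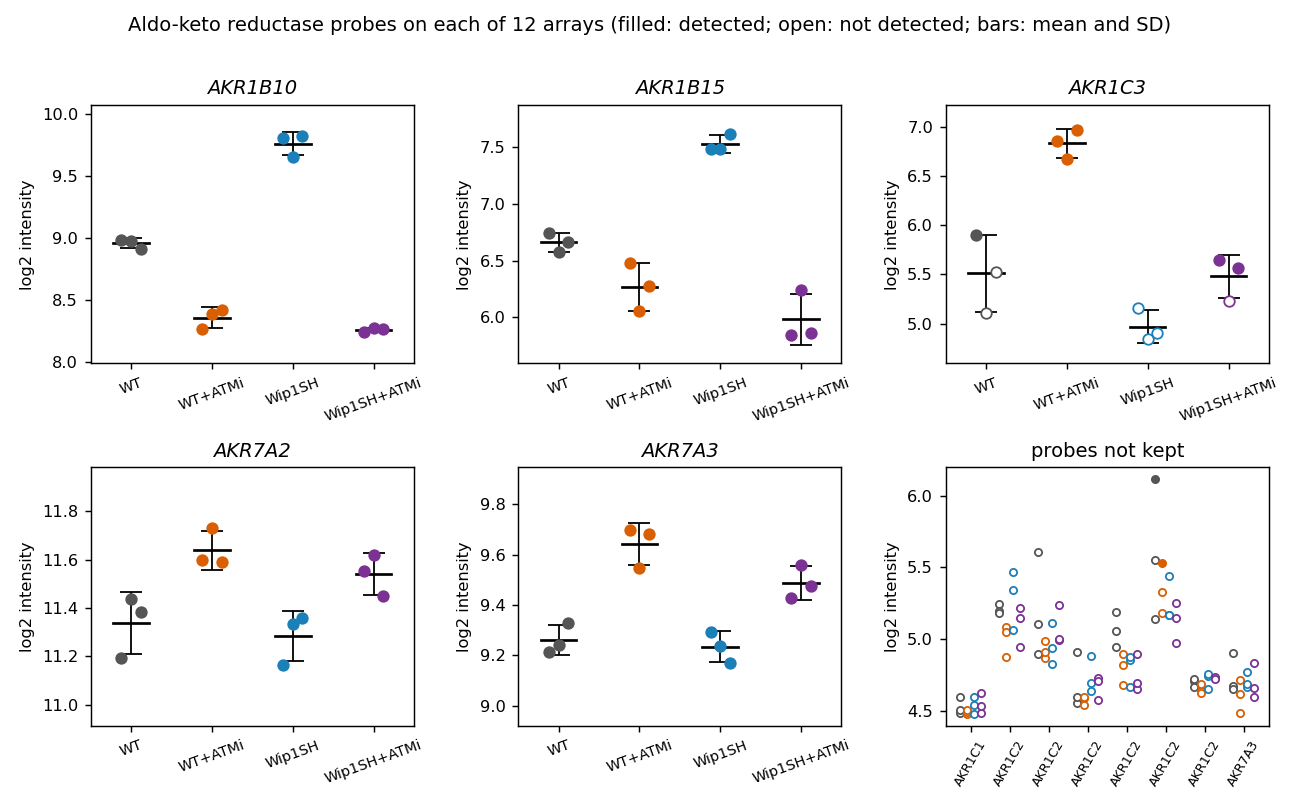
Log2 intensity (y axes, a separate range for each panel) of the 5 kept probes by group and of the 8 probes not kept, 1 point per array; filled points were detected and open points were not, and bars show the group mean and SD of 3 arrays. AKR1B10 and AKR1B15 are highest in the 3 Wip1SH arrays, AKR1C3 in the 3 WT+ATMi arrays, and both AKR7A genes in the treated groups.

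AKR1C3 followed another pattern, with detection on every array only in WT cells given the inhibitor. This enzyme makes testosterone from androstenedione and prostaglandin F from prostaglandin precursors. Its log2 intensity was 6.86, 6.68 and 6.97 in WT+ATMi, against 5.90, 5.11 and 5.52 in WT. In Wip1SH it was 5.16, 4.84 and 4.90, and in Wip1SH+ATMi 5.64, 5.23 and 5.57. The 3 WT+ATMi arrays lay above all 9 others, among which the ranges of WT and Wip1SH and of WT and Wip1SH+ATMi overlapped.

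Outside WT+ATMi, the probe was detected on 1 WT array, 2 Wip1SH+ATMi arrays and no Wip1SH array. It passed the filter through 6 detected arrays in all, 3 of them in its highest group. Group means were 6.84 ± 0.15 (SD) in WT+ATMi, 5.51 ± 0.39 in WT, 5.48 ± 0.22 in Wip1SH+ATMi and 4.97 ± 0.17 in Wip1SH. AKR1C3 was 2.51-fold higher in WT+ATMi than in WT (log2 difference 1.33 ± 0.18, SE) and, among treated cells, 2.56-fold lower in the shRNA line (-1.35 ± 0.18). As the probe was not detected on any Wip1SH array, no difference against Wip1SH is given. The raw signals were 102.2 to 126.7 in WT and 181.1 to 222.7 in WT+ATMi, whose arrays were brighter as a whole. With equal medians over all probes the difference between WT+ATMi and WT was 1.49, or 1.07 relative to the median of all genes there. Without background correction the difference between WT+ATMi and WT was 0.66.

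The sister genes AKR1C1 and AKR1C2 gave almost no signal. They encode enzymes that inactivate progesterone and dihydrotestosterone. The single AKR1C1 probe was detected on none of 12 arrays (log2 4.48 to 4.62, lowest detection p 0.8597). Of 6 AKR1C2 probes, 5 were detected on no array and the sixth, ILMN_2412336, on 2, at 6.12 in WT replicate 1 and 5.53 in WT+ATMi replicate 1. On the other 10 arrays that probe lay between 4.97 and 5.55. These genes were not detectable at this signal, which does not show that their RNA was absent, and the higher AKR1C3 level in WT+ATMi had no counterpart on the AKR1C1 probe.

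AKR7A2 and AKR7A3, adjacent genes for enzymes that reduce aflatoxin dialdehyde, and for AKR7A2 also succinic semialdehyde, were both detected on all 12 arrays and both slightly higher with the inhibitor. AKR7A2 was 11.19, 11.44 and 11.38 in WT and 11.60, 11.73 and 11.59 in WT+ATMi. In the shRNA line it was 11.16, 11.33 and 11.36 untreated and 11.55, 11.62 and 11.45 treated. In both lines every treated array was above every untreated array of that line, while WT and Wip1SH overlapped, as did both treated groups.

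AKR7A3 was 9.22, 9.24 and 9.33 in WT and 9.70, 9.55 and 9.68 in WT+ATMi. It was 9.30, 9.24 and 9.17 in Wip1SH and 9.43, 9.56 and 9.48 in Wip1SH+ATMi. Groups overlapped and separated in the same pairs as for AKR7A2. A second AKR7A3 probe, ILMN_1718483, was detected on no array (4.48 to 4.90).

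The differences of the AKR7A genes were small. With the inhibitor AKR7A2 differed by 0.30 ± 0.09 (SE) in WT cells and 0.26 ± 0.09 in Wip1SH cells, and AKR7A3 by 0.38 ± 0.08 and 0.25 ± 0.08. Between Wip1SH and WT the differences were -0.05 ± 0.09 for AKR7A2 and -0.03 ± 0.08 for AKR7A3. With equal medians over all probes the inhibitor differences in WT cells were 0.73 and 0.86, and relative to the median of all genes there 0.31 and 0.43. The interactions were -0.05 ± 0.13 and -0.13 ± 0.11.

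**Figure D2:**
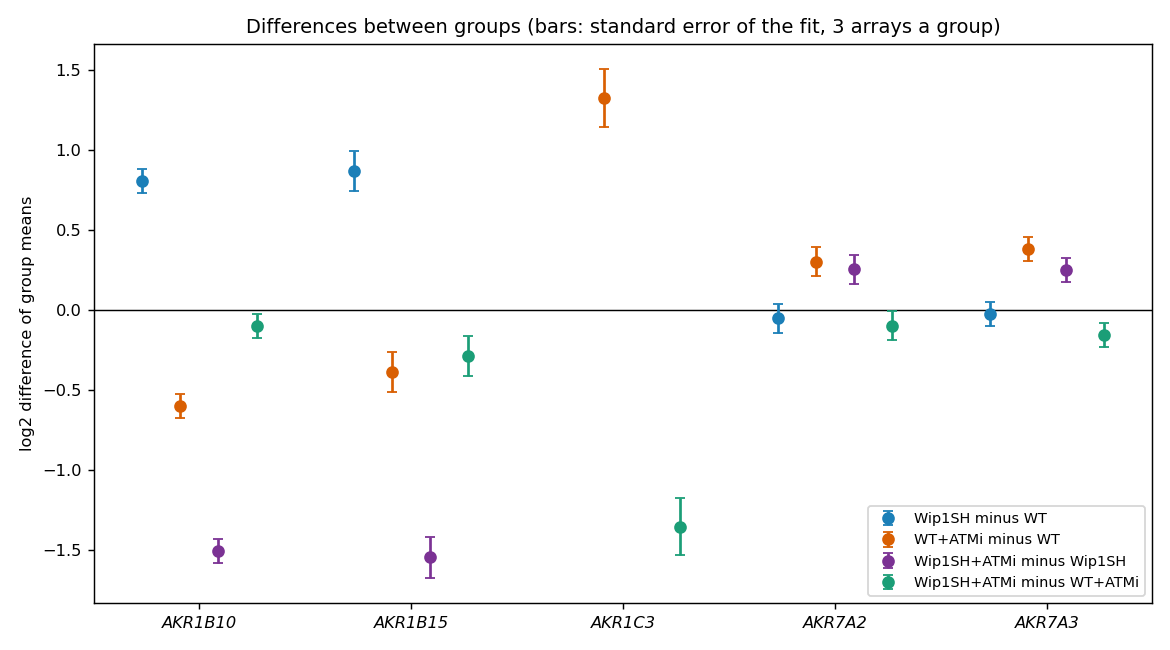
Log2 difference of group means (y axis) for each kept gene (x axis) in 4 comparisons; points are differences and bars their standard errors from the fit to 12 arrays. AKR1B10 and AKR1B15 are above 0 in Wip1SH minus WT and below -1.5 in Wip1SH+ATMi minus Wip1SH, AKR1C3 is at 1.33 in WT+ATMi minus WT and is not plotted against Wip1SH, where it was not detected, and the AKR7A genes stay between -0.2 and 0.4.

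Counted over the 5 kept genes, 3 were past an adjusted p of 0.05 in Wip1SH against WT (AKR1B10 and AKR1B15 higher, and AKR1C3, whose probe was not detected in Wip1SH, lower), where 32.2% of all genes were called. All 5 were past it in WT+ATMi against WT, beside 25.5% of all genes, with AKR1B10 and AKR1B15 lower and the others higher. In Wip1SH+ATMi against Wip1SH, 3 were past it (AKR1B10 and AKR1B15 lower, AKR7A3 higher), beside 23.3%. AKR1C3 alone was past it in Wip1SH+ATMi against WT+ATMi, beside 21.2%. For Wip1SH+ATMi against WT the count was 3 (AKR1B10 and AKR1B15 lower, AKR7A3 higher), beside 40.7%, and for the interaction 2 (AKR1B10 and AKR1B15), beside 3.11%. The members were chosen with these comparisons in view and a probe had to be detected somewhere to be counted, so nothing is read from the counts. The arrays of both groups did not overlap for 2, 5, 5, 1 and 4 of the 5 genes in the first 5 comparisons in this order, against 44.9%, 41.6%, 40.8%, 39.6% and 49.5% of all genes. The count for Wip1SH+ATMi against Wip1SH includes AKR1C3, whose probe was not detected on any Wip1SH array.

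Single arrays moved these counts. The count of 5 for WT+ATMi against WT was 3 (AKR1B10, AKR1C3 and AKR7A3) without WT replicate 1, WT+ATMi replicate 2 or WT+ATMi replicate 3. For Wip1SH+ATMi against Wip1SH it was 5 without WT replicate 1 and 2 without Wip1SH replicate 2, Wip1SH replicate 3 or Wip1SH+ATMi replicate 3. AKR1C3 was no longer counted in Wip1SH against WT without WT replicate 1, WT replicate 3, Wip1SH replicate 2 or Wip1SH replicate 3. AKR1B15 joined AKR1C3 in Wip1SH+ATMi against WT+ATMi without Wip1SH+ATMi replicate 2, for a count of 2.

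**Figure D3:**
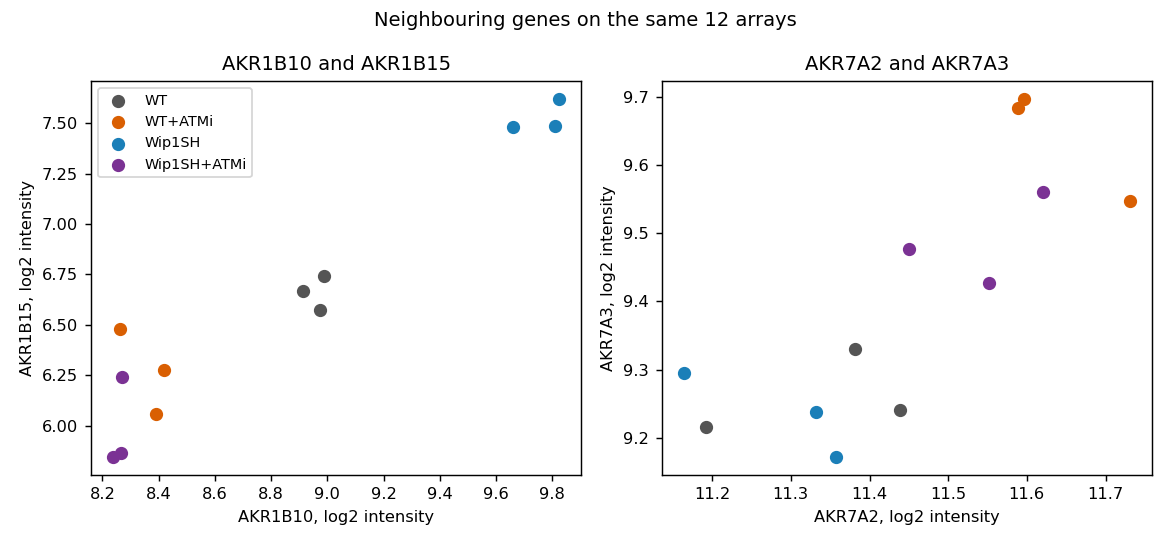
Log2 intensity of neighbouring genes on the same 12 arrays, AKR1B15 against AKR1B10 (left) and AKR7A3 against AKR7A2 (right), 1 point per array, coloured by group. On the left the 3 Wip1SH arrays and the 3 WT arrays form separate clusters above the mixed treated arrays; on the right untreated and treated arrays separate along both axes.

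Other genes of the superfamily were few on these arrays. Of 9 further genes listed, 6 had a probe and 3 were kept. AKR1C4, a hepatic hydroxysteroid dehydrogenase of the AKR1C group, was detected by 1 probe on 10 arrays at 5.34 to 6.35 and fell in Wip1SH+ATMi against WT+ATMi (-0.72 ± 0.15, SE; limma, adjusted p = 0.00684). Its other probe, ILMN_1668880, was detected on none of 12 arrays (4.46 to 4.79), so the AKR1C4 probes disagree on whether its RNA was present. AKR1C4 had group means of 6.01 and 6.29 in untreated and treated WT and 5.75 and 5.57 in untreated and treated Wip1SH, and its change in Wip1SH+ATMi against WT (-0.44 ± 0.15, adjusted p = 0.0385) was lost under 9 of 24 alternatives, among them leaving out WT replicate 1 or WT replicate 2.

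AKR1D1, a hepatic steroid reductase of bile acid synthesis, was listed at 11.47 to 12.05 on 12 arrays by ILMN_2157277, whereas its other probe, ILMN_1692661, was detected on none (4.65 to 5.16). These probes disagree on whether AKR1D1 RNA was present. The brighter one fell by 0.31 in Wip1SH against WT (-0.31 ± 0.10, adjusted p = 0.0292), and that call was lost under 7 of 24 alternatives, among them leaving out WT replicate 2, WT replicate 3, Wip1SH replicate 1 or Wip1SH replicate 2. KCNAB2, a potassium channel subunit of the superfamily, was detected on 5 arrays with group means of 5.38 to 5.55 and passed no test (adjusted p 0.555 to 0.941). AKR1E2, KCNAB1 and KCNAB3 were detected on no array.

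NRF2 targets outside the family were taken from a list of 22 genes, of which 19 were tested. Part of the list rose with the inhibitor in WT cells, where 8 genes were higher and 0 lower, while 15.4% of all genes were higher and 10.0% lower. ABCC3, an efflux pump for conjugates, rose by 1.28 ± 0.07 (SE) on the log2 scale (limma, adjusted p = 6.87e-06). NQO1, a quinone reductase, rose by 1.14 ± 0.07 (adjusted p = 7.74e-06) and HMOX1, which degrades heme, by 1.06 ± 0.07 (adjusted p = 7.74e-06). TKT of the pentose phosphate pathway rose by 0.74, GCLC of glutathione synthesis by 0.72 and the epoxide hydrolase EPHX1 by 0.64. The others were SRXN1 and PGD. The median difference of the 19 genes was 0.26, beside 0.03 for all genes. The count past the threshold was 17 with equal medians over all probes and 3 with each array's count of detected probes in the model. AKR1C3 and both AKR7A genes lay on the same side of 0 in this comparison, and AKR1B10 and AKR1B15 on the other.

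In Wip1SH against WT, 6 of the 19 targets rose and 3 fell, while 16.8% of all genes were higher and 15.4% lower. HMOX1 rose by 0.98 ± 0.07 (adjusted p = 7.07e-06), ABCC3 by 0.37 ± 0.07 (adjusted p = 0.00332), NQO1 and GCLM by 0.31 each, and SRXN1 by 0.29. PGD, an NADPH-producing dehydrogenase, fell by 0.42 (-0.42 ± 0.11, adjusted p = 0.0112). The median was 0.13, beside 0.01 for all genes. Here AKR1B10 and AKR1B15 were higher by 0.81 and 0.87. This comparison and that of the inhibitor in WT cells share the 3 WT arrays.

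With the inhibitor in Wip1SH cells 6 targets rose and 1, PRDX1, fell, while 14.3% of all genes were higher and 9.02% lower. ABCC3 rose by 1.29 ± 0.07 (adjusted p = 5.09e-06), HMOX1 by 0.95 ± 0.07 (adjusted p = 2.86e-05), NQO1 by 0.57 ± 0.07 (adjusted p = 0.000385), GCLC by 0.56 and TKT by 0.34. Without Wip1SH replicate 2 the count past the threshold was 4 in place of 7. SLC7A11, the cystine transporter, was at least 1.19-fold higher, as its probe was not detected in Wip1SH (adjusted p = 0.0159). AKR1B10 and AKR1B15 were lower by 1.51 and 1.55 on the log2 scale in the same cells.

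Between the treated groups, the shRNA line had 3 targets higher and 7 lower, while 10.5% of all genes were higher and 10.7% lower. HMOX1 rose by 0.88 ± 0.07 (adjusted p = 1.46e-05) and ABCC3 by 0.38. PGD fell by 0.78 (-0.78 ± 0.11, adjusted p = 0.000438), EPHX1 by 0.66, ABCC2 by 0.59, TKT by 0.55 and NQO1 by 0.26. AKR1C3 was lower by 1.35 on the log2 scale there, and AKR1B10 differed by -0.10. Against untreated WT, 6 targets were higher and 3 lower in Wip1SH+ATMi, where 23.5% of all genes were higher and 17.1% lower, with HMOX1 at 1.94 ± 0.07 (adjusted p = 1.25e-08) and ABCC3 at 1.65 ± 0.07 (adjusted p = 7.23e-08). In the interaction, where 1.90% of all genes were higher and 1.21% lower, NQO1 was the 1 target past the threshold (-0.58 ± 0.10, adjusted p = 0.0128).

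**Figure D4:**
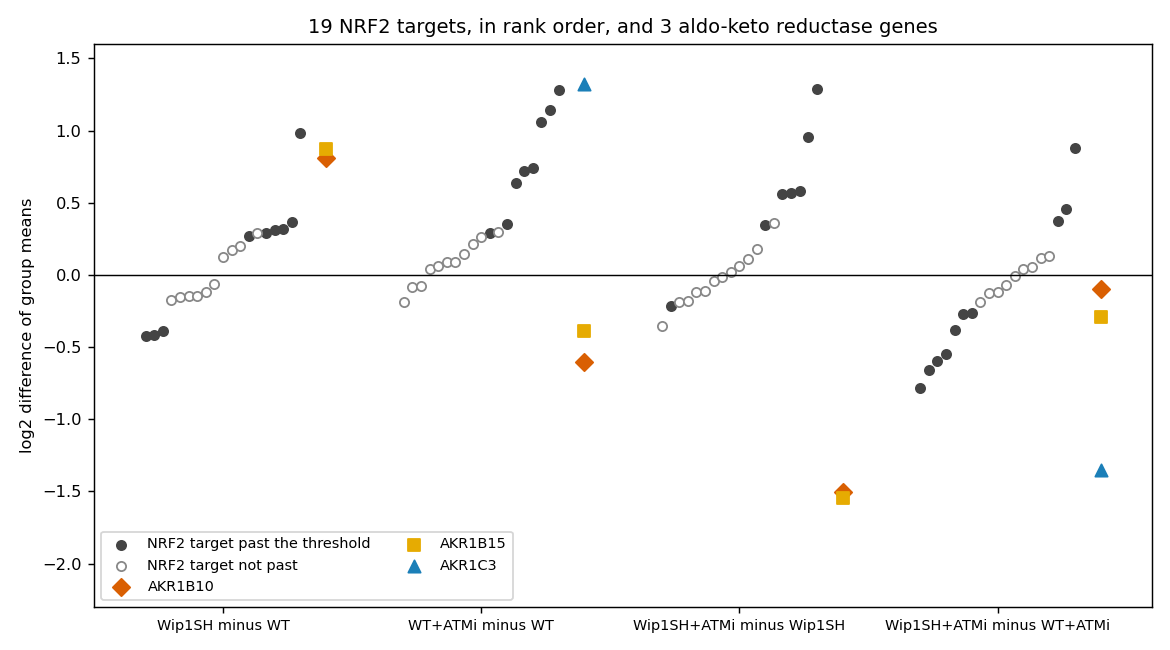
Log2 difference of group means (y axis) of 19 NRF2 targets, sorted within each of 4 comparisons, with AKR1B10, AKR1B15 and, where no untreated Wip1SH array enters, AKR1C3 beside them; filled circles passed an adjusted p of 0.05. In WT+ATMi minus WT the 8 filled targets and AKR1C3 lie above 0 and AKR1B10 and AKR1B15 below it. The target SLC7A11 is drawn at its point difference in all 4 comparisons, although its probe was not detected in WT or Wip1SH.

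Of 5 tested genes that regulate NRF2, 2 rose in Wip1SH against WT, and 1 rose and 1 fell in WT+ATMi against WT. Over all genes, 32.2% and 25.5% were called in these comparisons. NFE2L2, which encodes NRF2, rose by 0.37 ± 0.11 in Wip1SH against WT (adjusted p = 0.022) and did not pass with the inhibitor (0.09 ± 0.11 in WT cells, adjusted p = 0.585; -0.02 ± 0.11 in Wip1SH cells, adjusted p = 0.93). KEAP1, its inhibitor, passed no test (-0.22 to -0.01, with adjusted p from 0.105 to 0.96), and BACH1 was detected on no array. MAFF, a small MAF partner, fell by 0.70 in WT+ATMi against WT (-0.70 ± 0.10, adjusted p = 0.000616), and SQSTM1, which binds KEAP1, rose by 0.47 ± 0.07 (adjusted p = 0.000805). Of 3 kept MAFF probes, 1 moved the other way, at 0.23.

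Other enzymes of carbonyl metabolism were mixed in direction. Of 17 carbonyl reductases and dehydrogenases tested, 1 rose and 3 fell in Wip1SH against WT, beside 32.2% of all genes called in either direction. In WT+ATMi against WT 3 rose and 1 fell, beside 25.5% of all genes. In Wip1SH+ATMi against Wip1SH 4 rose and 2 fell, beside 23.3% of all genes. CBR3, which reduces quinones, fell there by 0.62 (-0.62 ± 0.15, adjusted p = 0.011), and DHRS2 fell in Wip1SH against WT by 0.62 (-0.62 ± 0.14, adjusted p = 0.00747), with -0.12 at its other kept probe. DHRS11 rose by 0.47 ± 0.09 with the inhibitor in Wip1SH cells (adjusted p = 0.00369), but its other kept probe was at -0.12.

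Aldehyde dehydrogenases oxidize the aldehydes that aldo-keto reductases reduce. Of 16 tested, 1 rose and 5 fell in Wip1SH against WT, and 4 rose and 1 fell in WT+ATMi against WT. In Wip1SH+ATMi against Wip1SH 4 rose and 3 fell. Over all genes, 32.2%, 25.5% and 23.3% were called in these comparisons, in this order. ALDH3A2, the fatty aldehyde dehydrogenase, rose with the inhibitor by 0.59 ± 0.08 in WT cells (adjusted p = 0.000405) and by 0.53 ± 0.08 in Wip1SH cells (adjusted p = 0.000767). ALDH3B1 rose by 0.89 ± 0.17 (adjusted p = 0.00377) and 1.01 ± 0.17 (adjusted p = 0.00215). ALDH1A3, which oxidizes retinal, the substrate of AKR1B10, fell in Wip1SH against WT (-0.35 ± 0.07, adjusted p = 0.00288) and in Wip1SH+ATMi against WT+ATMi (-0.66 ± 0.07, adjusted p = 7.91e-05). ALDH4A1 fell by 0.72 with the inhibitor in WT cells (-0.72 ± 0.13, adjusted p = 0.0026), while its 2 other kept probes were at -0.11 and 0.37.

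Steroid and prostaglandin enzymes, which share substrates with the AKR1C members, included SRD5A1, a steroid reductase. SRD5A1 fell by 0.91 in Wip1SH against WT (-0.91 ± 0.11, adjusted p = 0.000148) and rose with the inhibitor by 0.58 ± 0.11 in WT cells (adjusted p = 0.0032) and 0.56 ± 0.11 in Wip1SH cells (adjusted p = 0.00395). Between treated cells it fell by 0.92 in the shRNA line (-0.92 ± 0.11, adjusted p = 0.000195). Of 14 such genes tested, 1 rose and 4 fell in Wip1SH against WT, and 1 rose in WT+ATMi against WT. In Wip1SH+ATMi against WT+ATMi 1 rose and 4 fell. Over all genes, 32.2%, 25.5% and 21.2% were called in these comparisons, in this order. PTGS2, the inducible cyclooxygenase, was at least 1.43-fold higher in Wip1SH than in WT, where it was not detected (adjusted p = 0.00171). PTGES, a prostaglandin E synthase, fell with the inhibitor in Wip1SH cells (-0.90 ± 0.13, adjusted p = 0.000691).

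In a list for the polyol pathway and osmotic response, to which AKR1B1 belongs, 5 genes were tested. Of these, 2 fell in Wip1SH against WT, KHK among them (-0.67 ± 0.15, adjusted p = 0.00624), and none passed in WT+ATMi against WT. Of 5 tested genes of a list for the aryl hydrocarbon receptor, which also induces detoxifying reductases, and its targets, 3 rose in WT+ATMi against WT: NQO1, already given above, TIPARP (0.50 ± 0.09, adjusted p = 0.00226) and CYP1B1 (0.33 ± 0.10, adjusted p = 0.029). In Wip1SH against WT 2 rose, NQO1 and TIPARP (0.57 ± 0.09, adjusted p = 0.000754), and 1 fell, AHR itself (-0.35 ± 0.08, adjusted p = 0.00836). In Wip1SH+ATMi against WT+ATMi none rose and 2 fell, NQO1 (-0.26) and CYP1A1 (-0.69, limma, adjusted p = 0.0408), beside 21.2% of all genes called. Beside both lists, the share of all genes called was 32.2% in Wip1SH against WT and 25.5% in WT+ATMi against WT.

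Genes whose pattern over the 12 arrays was most like that of a member were named by Pearson's r, given as a description, since the arrays fall into 4 groups and share their scaling. For AKR1B10 these were AKAP19 (0.978), BTBD10 (0.969) and the cell adhesion gene CEACAM1 (0.951), and for AKR1B15 they were WFDC2 (0.965), CEACAM1 (0.953) and TRAPPC2B (0.953). AKAP19 had group means of 7.31 ± 0.11 (SD) in WT and 7.75 ± 0.06 in Wip1SH, and with the inhibitor 6.87 ± 0.09 and 6.91 ± 0.10, the same order as AKR1B10 apart from the treated pair. The genes most like AKR1C3 were FTH1P3, CRYL1 and VPS41, of which CRYL1 stood at 7.80 ± 0.08 in WT+ATMi and 6.95 ± 0.12 in WT. For AKR7A2 they were TSEN34 (0.930), TMCO4 (0.929) and ATG2A (0.927), and for AKR7A3 they were NIBAN2 (0.969), TIGD5 (0.961) and ACACB (0.960).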

How the data were processed

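Per the labels' protocols, total RNA of 12 HCT116 cultures was amplified to biotinylated cRNA; the scanner software, array genome build and normalization are not given in the sources used here. The deposited probe signals are linear intensity values, and the detection p-value of each probe stands beside its signal, per the file headers. Log2 values deposited by the authors differed by at most 5e-06 from those computed here with neqc of limma 3.58.1 (R 4.3.3): normal-exponential background correction with an offset of 16, negative controls inferred from detection p, quantile normalization and log2.

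Probes needed a detection p under 0.05 on at least 3 arrays, and the brightest of a gene's kept probes (3150 genes had several) stood for it, giving 11785 genes; 17202 of 47323 probes had no symbol here and 8 had several. A linear model with 1 mean per group (lmFit, eBayes) gave 5 differences and the interaction, with Benjamini-Hochberg adjustment over all genes and a threshold of 0.05. The p-values set differences of group means against the spread between cultures within groups. They do not cover the spread between shRNA clones or independently made lines. A fold against a group with no detected array is a bound ("at least").

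The members, gene lists, tests and alternatives were chosen with earlier results of these data known. Named were all members, PPM1D, further superfamily genes, NFE2L2, KEAP1 and BACH1, genes past the threshold from each list, at most 6 per list and comparison by adjusted p (a few further list genes are named to fill out a count), and the 3 genes most like each member. On simulated data with 200 of 11785 genes changed, the Wip1SH against WT fit recovered 97% of log2 changes of 1 and 53% of changes of 0.5. For the interaction it was 86% and 22%. Unchanged genes made up 5.06% of the calls in the first and 10% in the interaction. The simulation had independent noise, few changed genes and no brightness difference between groups, so recovery in the real data may differ. Array number limits the precision.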

Additional observations from a re-analysis of the deposited data

Results flagged for a closer look

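Among the listed genes outside the family, 5 passed the threshold for the interaction term of the limma fit, where 3.11% of all genes were called. In that fit, the difference with the inhibitor for these 5 was not the same in Wip1SH as in WT cells. The direction of interaction calls depended on the scaling. Over all genes, 224 were higher and 143 lower in the reported fit, against 11 and 256 with equal array medians over all probes. The interaction of NQO1 was -0.577 (adjusted p = 0.0128), as it rose by 1.14 in WT cells and by 0.57 in Wip1SH cells, and the call was lost under 1 of 23 alternatives, the mean of probes. For MAFF the interaction was 0.617 (adjusted p = 0.036), lost under 14 of 23, with other kept probes at -0.02 and -0.18. For PTGR2, a prostaglandin reductase, it was 0.57 (adjusted p = 0.0311), lost under 12 of 23. For HSD17B7, a steroid dehydrogenase, it was 0.61 (adjusted p = 0.0256), lost under 9 of 23. For COL1A1, a collagen chain, it was 0.643 (adjusted p = 0.0285), lost under 11 of 23.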

How the results depend on the processing

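Over the alternatives, 715 member differences were recomputed. Of these, 659 moved by less than the spread between replicates, 55 moved further and 1 that was past the threshold reversed. Sign changes of differences not past it were not counted as reversals. AKR7A2 in Wip1SH against WT, at -0.05, became 0.20 with equal medians over all probes. The deposited values, detection filters, mean of probes, replicate block and fit of only the groups compared could not move a member difference. The 659 therefore do not measure stability. Of 4177 recomputed differences of list genes past the threshold, 3580 kept direction and call, 586 lost the call and 11 reversed.

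With equal array medians over all probes the median of all genes moved to 0.24 in Wip1SH minus WT, 0.43 in WT+ATMi minus WT, 0.15 in Wip1SH+ATMi minus Wip1SH and 0.40 in Wip1SH+ATMi minus WT. The genes called higher and lower became 7041 and 165 in WT+ATMi against WT (1820 and 1182 in the reported fit), 3826 and 342 in Wip1SH against WT (1976 and 1818), 6361 and 386 in Wip1SH+ATMi against WT (2774 and 2017), 506 and 783 in Wip1SH+ATMi against WT+ATMi (1232 and 1263), 2096 and 285 in Wip1SH+ATMi against Wip1SH (1687 and 1063) and 11 and 256 for the interaction (224 and 143). With equal medians over the kept probes they were 1457 and 1923 in WT+ATMi against WT, 2419 and 2708 in Wip1SH+ATMi against WT, and 296 and 104 for the interaction. Members counted became 3 in WT+ATMi against WT and 5 in Wip1SH+ATMi against Wip1SH with equal medians over all probes, where the NRF2 counts were 17, 5 and 14 in WT+ATMi against WT, Wip1SH+ATMi against WT+ATMi and Wip1SH+ATMi against WT (8, 10 and 9 reported). Under that scaling RDH13 reversed in Wip1SH against WT (0.039), PTGR2 in WT+ATMi against WT (0.052), and in Wip1SH+ATMi against WT PRDX1 (0.069), ALDH16A1 (0.082), HSD17B10 (0.12), SRD5A1 (0.092) and PTGES3 (0.0014). Relative to the median of all genes there, these 7 stayed below 0, at -0.40 to -0.20.

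With the number of detected probes, which differs between the groups, as a covariate, all genes called were 33 in WT+ATMi against WT, 886 in Wip1SH against WT (3794 reported), 40 in Wip1SH+ATMi against WT (15 higher, 25 lower), 1183 in Wip1SH+ATMi against WT+ATMi, 159 in Wip1SH+ATMi against Wip1SH and 231 for the interaction (367 reported). Members counted were then 1 in Wip1SH against WT and 0 in WT+ATMi against WT and Wip1SH+ATMi against WT; NRF2 counts were 1, 3, 2, 6 and 2 in Wip1SH against WT, WT+ATMi against WT, Wip1SH+ATMi against Wip1SH, Wip1SH+ATMi against WT+ATMi and Wip1SH+ATMi against WT. In Wip1SH+ATMi against WT it reversed AKR7A3 (-0.016), NFE2L2 (-0.077), AKR1C4 (0.13), ALDH3A1 (-0.082) and HSD17B10 (0.078). The cause was not tested.

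In Wip1SH+ATMi against Wip1SH, members counted were 5 without background correction or with the strict detection filter, and in WT+ATMi against WT 3 with only the groups compared. Array weights gave 2 in Wip1SH+ATMi against WT+ATMi. The NRF2 count for the interaction was 2 with an offset of 50, no background correction or the strict filter and 0 with the mean of probes (1 reported); all genes called there were 572 without background correction. Leaving out each array in turn, members counted were 2 to 3, 3 to 5, 2 to 5, 1 to 2, 2 to 3 and 2 to 3 in the order Wip1SH minus WT, WT+ATMi minus WT, Wip1SH+ATMi minus Wip1SH, Wip1SH+ATMi minus WT+ATMi, Wip1SH+ATMi minus WT and interaction; NRF2 counts were 6 to 9, 6 to 8, 4 to 8, 7 to 9, 7 to 10 and 1 to 2, and interaction calls over all genes 164 (without WT+ATMi replicate 3) to 321 (without WT replicate 2), against 367.

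Whether replicate numbers pair the arrays is not settled. Same-number deviations correlated at -0.082 to 0.141, with 3 of 18 pairs over 0.1, and other-number deviations at -0.138 to 0.151. Among arrays of other groups, 7 of 12 arrays correlated best with their own number. With the number as a block, members counted were 3, 4, 4, 1, 2 and 3 in the order above, and interaction calls were 295 in place of 367. Signal over background limits AKR1C1, AKR1C2 and AKR1C3, and cross-hybridization was not tested.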

Other observations

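Keratin genes, measured as markers of the epithelial cell type, moved with the inhibitor in the same arrays. KRT8 fell by 0.56 in WT cells (-0.56 ± 0.10, SE; limma, adjusted p = 0.00184) and by 0.56 in Wip1SH cells (-0.56 ± 0.10, adjusted p = 0.00222). KRT18 fell by 1.06 and 0.83 at its brightest probe (adjusted p = 0.00337 and 0.0125), while its other kept probe was at -0.35 and -0.09. KRT19 fell in Wip1SH cells by 0.67 (-0.67 ± 0.08, adjusted p = 0.000353). CDX2, a transcription factor of intestinal epithelium, rose by 0.44 ± 0.08 in WT cells (adjusted p = 0.00294) and 0.39 ± 0.08 in Wip1SH cells (adjusted p = 0.00607). In Wip1SH+ATMi against WT all 6 tested epithelial markers passed, 3 higher and 3 lower, where 40.7% of all genes were called.

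The pseudogene AKR7A2P1 was detected on 3 arrays at 5.02 to 5.66 over all 12 and passed no test (lowest adjusted p = 0.0502, in Wip1SH against WT).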
